A study of Rattus norvegicus with 2 samples.

Results

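A set of 9 genes of matrix remodelling was followed in liver, in rats fed a choline-deficient diet for 10 days and in rats fed a control diet for the same time. The set held the matricellular genes Cyr61, Ctgf and Thbs1, the metalloproteinases Mmp2, Mmp9 and Mmp14, the inhibitors Timp1 and Timp2, and the growth factor gene Tgfb1. They were chosen by gene name, as every probe on the array that carries one of these 9 names, out of 33719 gene names. All 9 were on the array, with 10 probes on 55 spots, and 7 of them entered the test of 18195 genes. Each of the 2 two-colour arrays held liver total RNA of choline-deficient rats against that of control rats (Wistar rats of 7 weeks, spelled Wister in the labels); Cy5 marked the choline-deficient RNA on array 1 and the control RNA on array 2, and Cy3 the other. According to the labels 4 rats had the choline-deficient diet, but pooling of RNA or reuse of extracts on both arrays is not stated, so p-values measure only the spread between the 2 arrays, which may be technical. Over all gene spots, the share well above background was 62.9% for choline-deficient and 54.2% for control RNA on array 1, and 53.5% and 63.2% on array 2, following the dye rather than the diet. With so few arrays, the precision of every value is limited.

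Matricellular proteins sit in the extracellular matrix and tune signalling rather than build fibres. Cyr61 (now Ccn1) and Ctgf (now Ccn2) encode secreted CCN proteins that bind integrins and are classical targets of the YAP and TAZ coactivators with TEAD factors, and Ctgf is also induced by TGF-beta. Thrombospondin-1, from Thbs1, can release TGF-beta from its latent complex. The gelatinases Mmp2 and Mmp9 cut denatured collagen and basement membrane, and Mmp14 is a membrane-bound collagenase that activates pro-Mmp2 with Timp2 as a bridge. Timp1 inhibits most metalloproteinases and binds pro-Mmp9. Hepatic stellate cells are the best known source of many of these transcripts in injured liver, but hepatocytes, macrophages and endothelial cells make some of them too.

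The probes that measured Cyr61, Timp1 and Tgfb1 are shown in lower case, 5′ to 3′, with the first 30 of 60 bases for Cyr61 and all 60 for Timp1 and Tgfb1. The coordinates of these probes are those of the array files, on the rat build rn4.
Cyr61, brighter probe (chr2:243824388-243824447, minus strand): ttgaatgtttttatttatcaaaatgtagct
Cyr61, dimmer probe (chr2:243824922-243824981, minus strand): ccacaagttcagggactaaaggtctcctgg
Timp1 (chrX:12542700-12543703, minus strand): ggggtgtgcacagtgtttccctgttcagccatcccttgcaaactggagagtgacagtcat
Tgfb1 (chr1:80910123-80910182, plus strand): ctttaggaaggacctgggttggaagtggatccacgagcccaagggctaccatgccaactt
The Cyr61 probes start 534 bases apart and differ in base composition, with 35.0% G and C in the brighter and 53.3% in the dimmer one. The Timp1 probe spans 1004 genomic bases with its 60 bases, so that its ends lie in different genomic segments.

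In choline-deficient liver, 3 of the 9 genes rose and none fell: Cyr61 2.38-fold, Ctgf 1.74-fold and Timp1 1.57-fold. Among all genes tested, 4.37% were called higher and 4.25% lower (8.62% in either direction) by limma at a Benjamini-Hochberg adjusted p under 0.05. The 7 members tested had a median log2 ratio of choline-deficient over control of 0.22, against 0.00 for all genes tested, a description with no test, since the genes were chosen with results of these arrays known. That median is the value of Timp2, and the members' median was -0.00 on array 1 and 0.44 on array 2. Whole liver was measured, so that more or fewer cells of a type and more or less RNA per cell cannot be told apart. Tgfb1, Mmp2, Mmp14 and Timp2 did not pass the test. Thbs1 and Mmp9 were too dim to test. Log2 ratios above 0 on both arrays were found for Cyr61, Ctgf and Timp1 alone among the 7, and for 29.4% of all genes tested. Every member tested was well above background for both diets on both arrays in more than 50% of its spots.

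**Figure D1:**
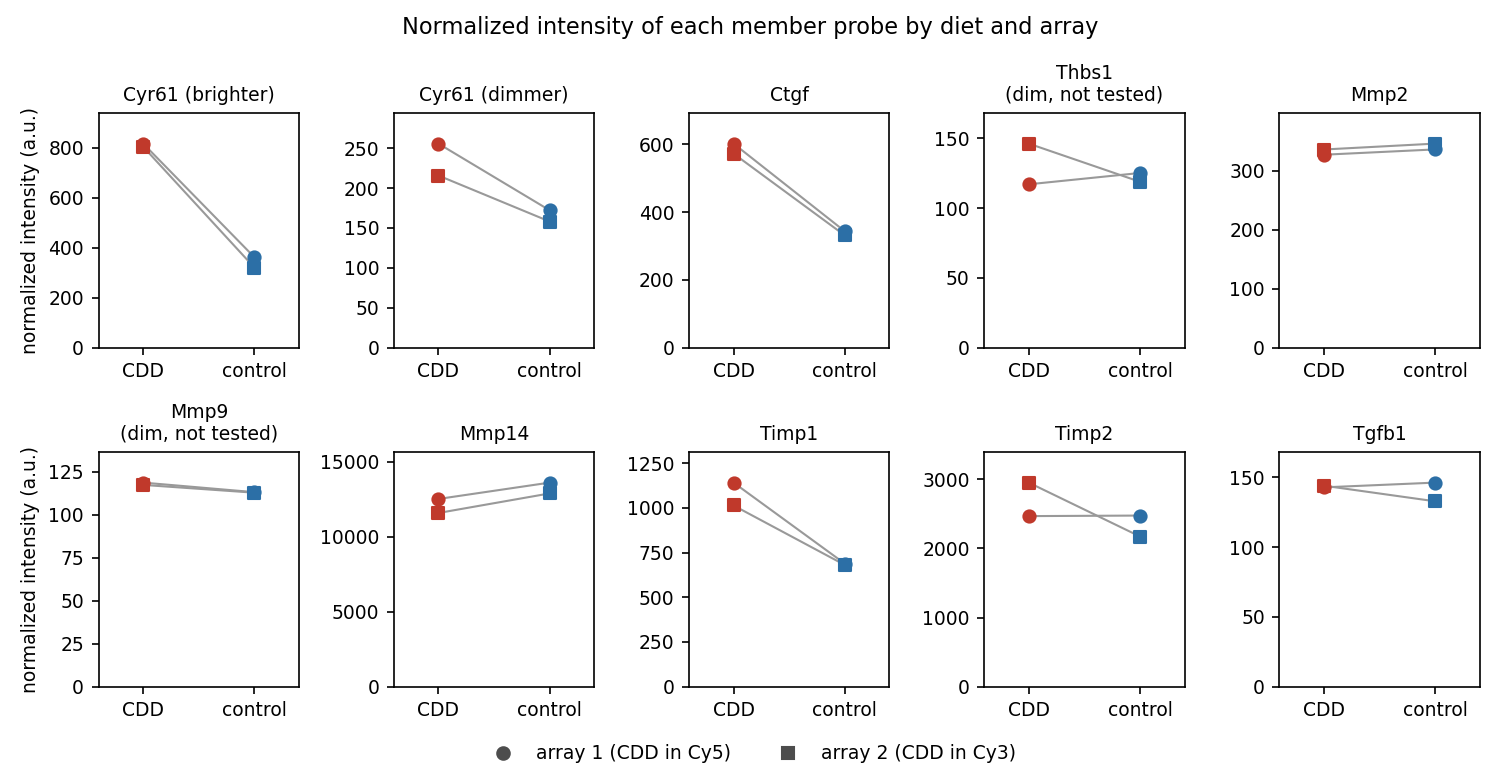
Normalized intensity (arbitrary units, vertical axes starting at 0) of the 10 probes of the 9 genes, with choline-deficient liver (CDD, red) left of control liver (blue). Circles are array 1 and squares array 2, and lines join the diets of an array. Cyr61, Ctgf and Timp1 lie higher in CDD on both arrays, while Mmp2 and Mmp14 lie slightly lower.

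Cyr61 had normalized intensities of 816 and 804 in choline-deficient liver on arrays 1 and 2, against 361 and 320 in control liver. Both choline-deficient values lay far above both control values. The log2 ratio was 1.18 on array 1 and 1.33 on array 2, a mean of 1.25 ± 0.11 (SD, n = 2 arrays; limma adjusted p = 8.39e-16). Of all genes tested, 99.9% had a lower mean log2 ratio, and Cyr61 was among the 35 genes (0.192% of those tested) that were at least 2-fold higher on each array. A second Cyr61 probe was dimmer, with 256 and 216 in choline-deficient and 172 and 158 in control liver. It gave the same direction with a much smaller log2 ratio, 0.57 and 0.45 on the 2 arrays (mean 0.51 ± 0.09, SD, n = 2 arrays; limma adjusted p = 0.00117 when every probe was tested). Adding an offset of 50 in background correction draws ratios of dim spots towards 0. With an offset of 16 the dimmer probe stood at 0.69 and 0.56 and the brighter one at 1.27 and 1.43. The ratios of both probes were larger there, and a wide gap between them remained. In the authors' deposited log ratio, turned to log2 of choline-deficient over control, the brighter probe stood at 1.54 and 1.63 and the dimmer one at 1.39 and 0.88. Each Cyr61 probe has 1 spot an array, so the precision within an array is not known for either.

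Ctgf had normalized intensities of 602 and 573 in choline-deficient liver, against 343 and 331 in control liver. Its probe is spotted 10 times on each array, which shows the precision within an array. The log2 ratio of the spots ran from 0.71 to 0.92 on array 1 (median 0.81) and from 0.68 to 0.86 on array 2 (median 0.79). None of the 20 spots came near 0, and the means of the arrays differed by less than the spread of the spots within either. The mean log2 ratio was 0.80 ± 0.01 (SD, n = 2 arrays; limma adjusted p = 6.16e-09), a fold of 1.74 with a 95% interval of 1.51 to 2.00. In the authors' deposited table of spot p-values, which come from an error model within 1 array, the largest of the 20 was 6.59e-05.

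Thbs1 could not be measured reliably. Its single spot was well above background in choline-deficient RNA on array 2 only, and in control RNA on neither array. The scanned mean signals were 92.0 and 138 in choline-deficient liver, against 106 and 120 in control liver. Each lay above the 95th percentile of the 153 negative control spots in the same channel (81.5 and 104 for choline-deficient, 95.7 and 99.3 for control), most clearly in choline-deficient RNA on array 2. Its log2 ratio changed sign between the arrays, at -0.10 and 0.30. Its normalized intensities were 117 and 146 in choline-deficient liver, against 125 and 119 in control liver, and no fold is given. The probe is unmapped in the array files.

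**Figure D2:**
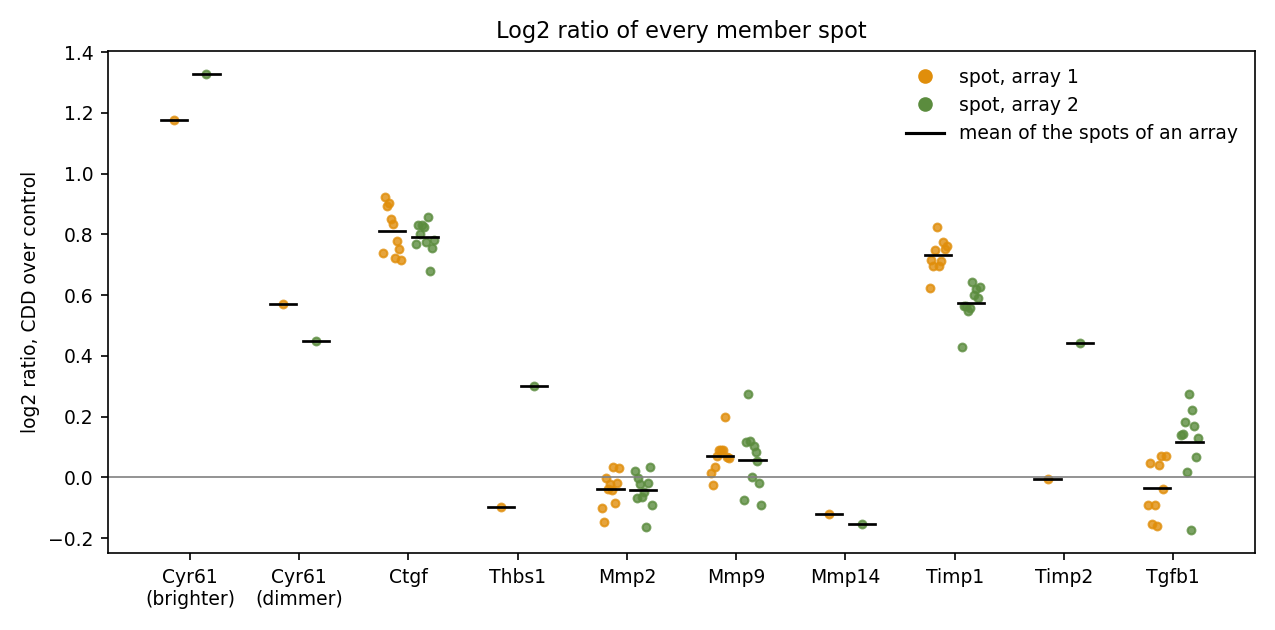
Log2 ratio of choline-deficient (CDD) over control for every spot of the 9 genes (vertical axis), array 1 in orange and array 2 in green, with the mean of each array as a black bar. The 10-spot probes of Ctgf and Timp1 lie wholly above 0 on both arrays, those of Mmp2, Mmp9 and Tgfb1 straddle it.

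Among the inhibitors, Timp1 had normalized intensities of 1142 and 1014 in choline-deficient liver, against 688 and 681 in control liver. The spots of its 10-spot probe ran from 0.62 to 0.82 on array 1 and from 0.43 to 0.64 on array 2. Every spot was higher in choline-deficient liver, with array 1 somewhat above array 2. The mean log2 ratio was 0.65 ± 0.11 (SD, n = 2 arrays; limma adjusted p = 1.32e-06), or 1.57-fold with a 95% interval of 1.37 to 1.81. Timp2 had 2467 and 2952 in choline-deficient liver, against 2475 and 2172 in control liver. The difference was therefore on array 2 alone, with log2 ratios of -0.00 and 0.44 (mean 0.22 ± 0.32, SD, n = 2 arrays; limma adjusted p = 0.252, from an unadjusted 0.0408). Timp2 has 1 spot an array, so the precision within an array is not known for it. Its probe lies at chr10:108311244-108311303 in rn4.

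The metalloproteinase genes did not pass in either direction. Mmp14, the brightest of the tested members over both dyes, had 12509 and 11574 in choline-deficient liver, against 13599 and 12879 in control liver. Its log2 ratio was -0.12 and -0.15 (mean -0.14 ± 0.02, SD, n = 2 arrays; limma adjusted p = 0.594), with a fold between 0.79 and 1.05 in the 95% interval. Mmp14 too has 1 spot an array. Mmp2 had 327 and 336 in choline-deficient liver, against 336 and 346 in control liver. The means of its 10 spots were -0.04 on both arrays (limma adjusted p = 0.945), and the 95% interval of the fold was 0.85 to 1.12. For both genes the diets differed by little, and slightly downwards on both arrays, which 27.0% of all genes tested also did. Mmp9 was near background: of its 10 spots, 1 was well above it in choline-deficient RNA on array 1 and 0 on array 2, and 0 in control RNA on both. Its scanned mean signals were 100 and 114 in choline-deficient liver, against 96.5 and 111 in control liver, and no fold is given. Each lay above the 95th percentile of the negative control spots in its channel (81.5 and 104 for choline-deficient, 95.7 and 99.3 for control). The probes of these genes lie at chr15:32503012-32503071 (Mmp14), chr19:15246221-15246280 (Mmp2) and chr3:155992463-155992522 (Mmp9) in rn4.

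Tgfb1, the gene of the main fibrogenic TGF-beta ligand, had normalized intensities of 143 and 144 in choline-deficient liver, against 146 and 133 in control liver. It was dim, with 10 and 7 of 10 spots well above background in choline-deficient RNA and 7 and 10 in control RNA. The spots ran from -0.16 to 0.07 on array 1 and from -0.17 to 0.27 on array 2, so that spots of both signs were found on each array. The mean log2 ratio was 0.04 ± 0.11 (SD, n = 2 arrays; limma adjusted p = 0.944), with a fold of 0.89 to 1.18 in the 95% interval, a range that holds no change as well as small changes either way. With an offset of 16 the array means were -0.04 and 0.16.

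**Figure D3:**
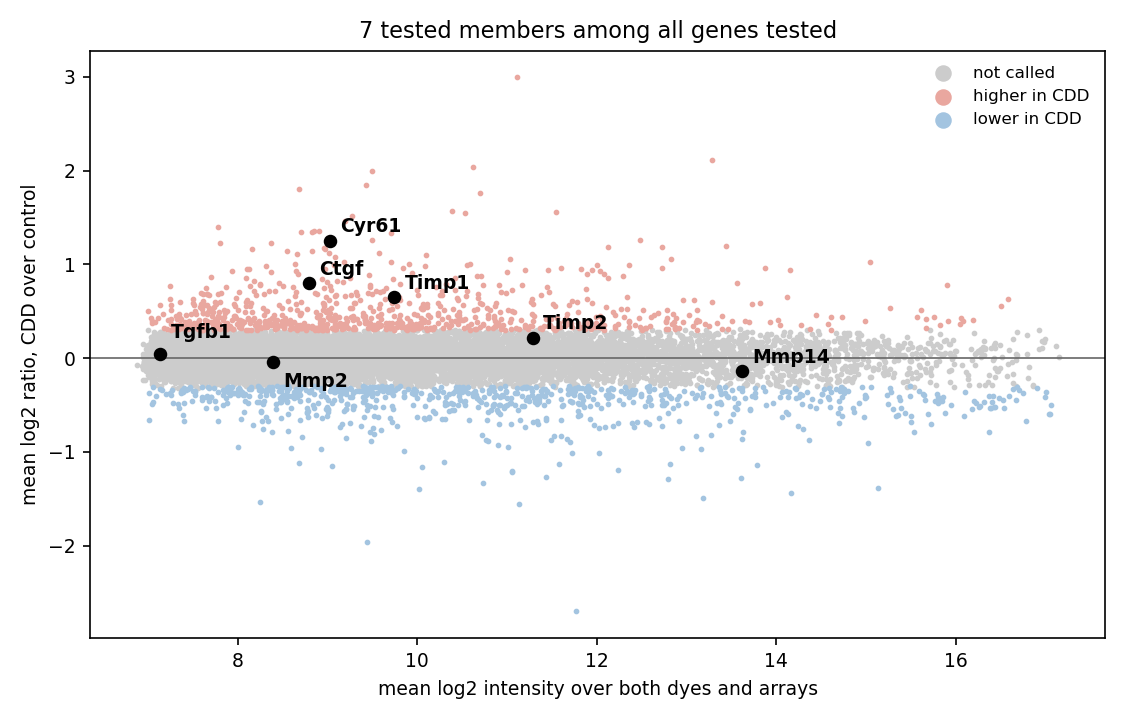
Mean log2 ratio of choline-deficient (CDD) over control (vertical axis) against mean log2 intensity over both dyes and arrays (horizontal axis) for the 18195 genes tested, with the 7 tested members in black. Pink genes were called higher in CDD, blue ones lower and grey ones were not called. Cyr61, Ctgf and Timp1 stand above the grey band, the other members within it.

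The genes whose pair of log2 ratios on the 2 arrays lay closest to that of Cyr61, by Euclidean distance over the 11195 other genes with a symbol, were Akr7a3 (distance 0.02), Mmp12 (0.07), Klf6 (0.10), Fabp4 (0.10) and Cdk1 (0.12). A likeness over 2 arrays says only that the ratios were of similar size.

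Because Cyr61, Ctgf and Timp1 rose together, the 250 bases before their start sites are shown (RefSeq, build GRCr8, plus strand of the gene), with capitals for the TEAD motif GGAATG on either strand and for a TATA box TATAAA on the gene's strand. The motifs do not overlap each other in these windows.
Cyr61 (Ccn1, chr2:237225690-237225939, minus strand): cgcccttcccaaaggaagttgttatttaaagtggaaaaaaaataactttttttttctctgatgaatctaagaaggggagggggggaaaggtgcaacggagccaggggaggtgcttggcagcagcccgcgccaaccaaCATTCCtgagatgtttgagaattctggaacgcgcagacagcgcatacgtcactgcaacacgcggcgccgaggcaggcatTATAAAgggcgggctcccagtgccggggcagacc
Ctgf (Ccn2, chr1:22624615-22624864, minus strand): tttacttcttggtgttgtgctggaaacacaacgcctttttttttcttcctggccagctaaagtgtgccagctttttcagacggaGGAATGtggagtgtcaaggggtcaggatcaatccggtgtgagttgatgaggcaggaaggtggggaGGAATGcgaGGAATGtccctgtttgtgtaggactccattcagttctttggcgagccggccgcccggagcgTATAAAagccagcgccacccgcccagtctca
Timp1 (chrX:3771123-3771372, minus strand): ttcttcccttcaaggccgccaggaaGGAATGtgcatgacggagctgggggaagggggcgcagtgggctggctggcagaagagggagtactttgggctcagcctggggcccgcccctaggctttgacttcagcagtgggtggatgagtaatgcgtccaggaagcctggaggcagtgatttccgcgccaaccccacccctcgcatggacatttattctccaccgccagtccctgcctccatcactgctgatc
Ctgf held the TEAD motif 3 times, and Cyr61 and Timp1 once each, while 11.8% of 27457 rat promoters of this length (1 a gene) held it at least once and 0.0911% at least 3 times. A promoter was in the table for 6 of the 9 genes. Thbs1 held the motif once, and Timp2 and Tgfb1 held none. A TATA box was found in Cyr61 and Ctgf, and in 8.38% of all promoters. The AP-1 motif TGANTCA (6.36% of promoters, both strands) and the CArG box (412 promoters, both strands) were in none of the 6. Only exact matches to a motif were counted, so variant sites would have been missed. These matches describe letters in a window and were not tested as sites.

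In a list of other YAP, TAZ and TEAD genes, which leaves out Cyr61 and Ctgf, no gene passed. Of 18 genes tested, 0 were called higher or lower by limma at the adjusted p under 0.05, and the median log2 ratio was 0.03. Over all genes tested, 3195 had an unadjusted p under 0.05 and 1568 (8.62%) were called. Against that share, 0 calls in so short a list is near the background and is no result about the list. The coactivator Yap1 (0.24 ± 0.37, SD, n = 2 arrays), the LIM protein Ajuba (0.23 ± 0.10) and the factor Tead1 (0.22 ± 0.32) had the largest absolute ratios. The 7 further targets tested had log2 ratios from -0.17 to 0.23, below those of Cyr61 and Ctgf, and that difference was not tested. Some of these targets were about as dim as Tgfb1, where the offset draws ratios towards 0. In choline-deficient liver Ankrd1 had normalized intensities of 164 and 138, and Amotl2 127 and 126. The target Crim1 was far brighter, at 2202 and 1993, and its log2 ratio was 0.03 ± 0.05 (SD, n = 2 arrays).

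In the TGF-beta list, 2 of 26 genes tested rose and 1 fell, with a median of -0.00. With 8.62% of all genes called in either direction, a count of this size is near the background and is no result about the list. Id1, an inhibitor of basic helix-loop-helix factors that BMP signals induce, rose (0.59 ± 0.00, SD, n = 2 arrays), as did the inhibitory SMAD gene Smad7 (0.41 ± 0.05). Inhba, which encodes an activin subunit, fell (-0.30 ± 0.07), and its other 2 kept probes stood at -0.30 and -0.35. No ligand or latency gene (4 tested, -0.05 to 0.13) and no receptor gene (5 tested, -0.14 to 0.00) was called. Tgfb1 lay within the range of these ligand genes.

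Of all genes tested, 4.37% were called higher and 4.25% lower, the background for the small lists that follow. Among other matricellular genes, 3 of 13 tested rose and 1 fell, with a median of 0.01. Spp1, the osteopontin gene, rose more than Cyr61 did in mean log2 ratio (1.52 ± 0.15, SD, n = 2 arrays), Lgals3, which encodes galectin-3, rose by 1.06 ± 0.28, and the proteoglycan gene Dcn rose by 0.34 ± 0.09. Vtn, which encodes the plasma protein vitronectin, fell (-0.52 ± 0.36). Of other metalloproteinases, 3 of 15 tested rose and none fell, with a median of 0.14, and 10 further genes were too dim. They were the macrophage elastase Mmp12 (1.23 ± 0.17), the membrane-type enzyme Mmp24 (0.37 ± 0.01) and Adamts9 (0.32 ± 0.20). Of 11 further inhibitor and plasmin genes tested, the hyaluronan receptor Cd44 rose (0.71 ± 0.08), Timp3, a matrix-bound inhibitor, rose (0.31 ± 0.03, although its second probe stood at 0.02), and the antiplasmin gene Serpinf2 fell (-0.38 ± 0.12), with a median of -0.04. Timp4 stood at -0.01 ± 0.22.

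**Figure D4:**
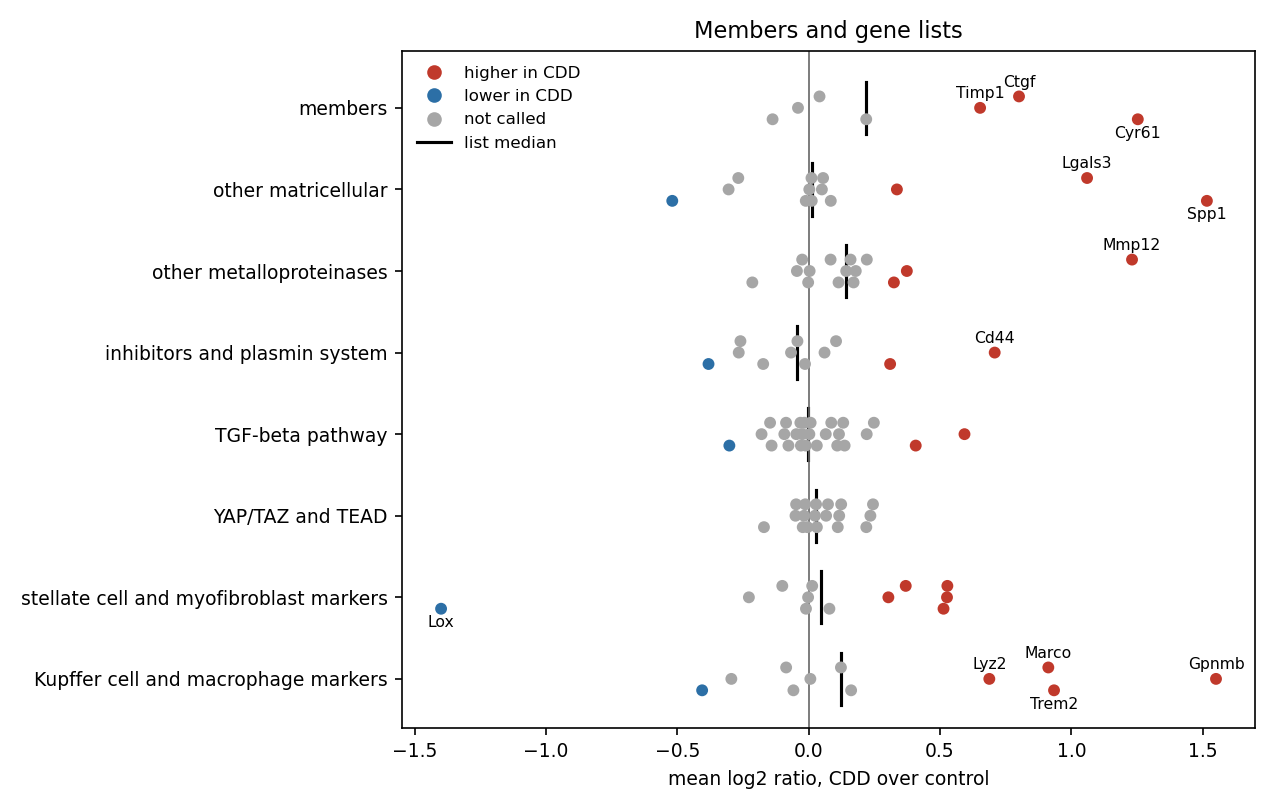
Mean log2 ratio of choline-deficient (CDD) over control (horizontal axis) for each tested gene of the members, of 5 lists and of 2 marker lists (rows), spread vertically only for legibility. Red genes were called higher in CDD, blue ones lower, grey ones not called, and black bars are list medians. Cyr61, Ctgf and Timp1 lie at 0.65 or more, while no gene of the YAP/TAZ and TEAD row passed 0.25.

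The liver identity of the samples was checked on 8 hepatocyte markers, all of them measured, of which 2 rose and 1 fell (median -0.12, summed normalized intensity 539440 and 434010 in choline-deficient liver against 461380 and 603680 in control liver). These hepatocyte sums were higher in the Cy5 channel on both arrays, following the dye rather than the diet. Of 12 stellate cell and myofibroblast markers, 5 rose and 1 fell, with a median of 0.05 and sums of 21450 and 21780 in choline-deficient liver against 19820 and 19965 in control liver. Vim (0.53 ± 0.06, SD, n = 2 arrays), Tagln (0.51 ± 0.18) and the collagen genes Col1a1 (0.53 ± 0.02), Col1a2 (0.37 ± 0.08) and Col3a1 (0.30 ± 0.01) rose, and Lox, a collagen cross-linking enzyme, fell (-1.40 ± 0.07). The probes of Col1a1 disagreed, since the other 2 stood at 0.01 and -0.06. A second Lox probe stood at -0.63, a smaller fall. Not called were Lrat (-0.10 ± 0.06), Des (0.08 ± 0.16), Pdgfrb (-0.23 ± 0.28), Pdgfra (-0.00 ± 0.04), Reln (-0.01 ± 0.08) and Rgs5 (0.01 ± 0.01). Among 11 markers of macrophages, Kupffer cells included, 4 passed as higher, 1 as lower and 6 were not called, with a median of 0.12. Gpnmb (1.55 ± 0.33), Trem2 (0.93 ± 0.01), Marco (0.91 ± 0.13) and Lyz2 (0.69 ± 0.24) rose, and Cd14 fell (-0.41 ± 0.01). Their sums were 30656 and 32232 in choline-deficient liver against 33399 and 31374 in control liver. Clec4f, not called, made up most of these sums (16396 and 18662 against 22532 and 20420). Of 4 neutrophil markers tested, S100a8 rose, and 5 further ones, Camp, Elane, Ngp, Mmp8 and Csf3r, were too dim, as Mmp9 was. None of 5 platelet markers was called (median -0.02). Endothelial markers had 1 of 7 lower, cholangiocyte markers 1 of 5 higher (Spp1, already counted among the matricellular genes, while Krt19, Epcam, Sox9 and Cftr were not called), T, NK and B cell markers 1 of 5 lower and mesothelial markers 2 of 3 lower. Against the 8.62% of all genes called, single calls in lists this short say little. The part of these cell types in the rise of Cyr61, Ctgf and Timp1 was not tested.

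**Figure D5:**
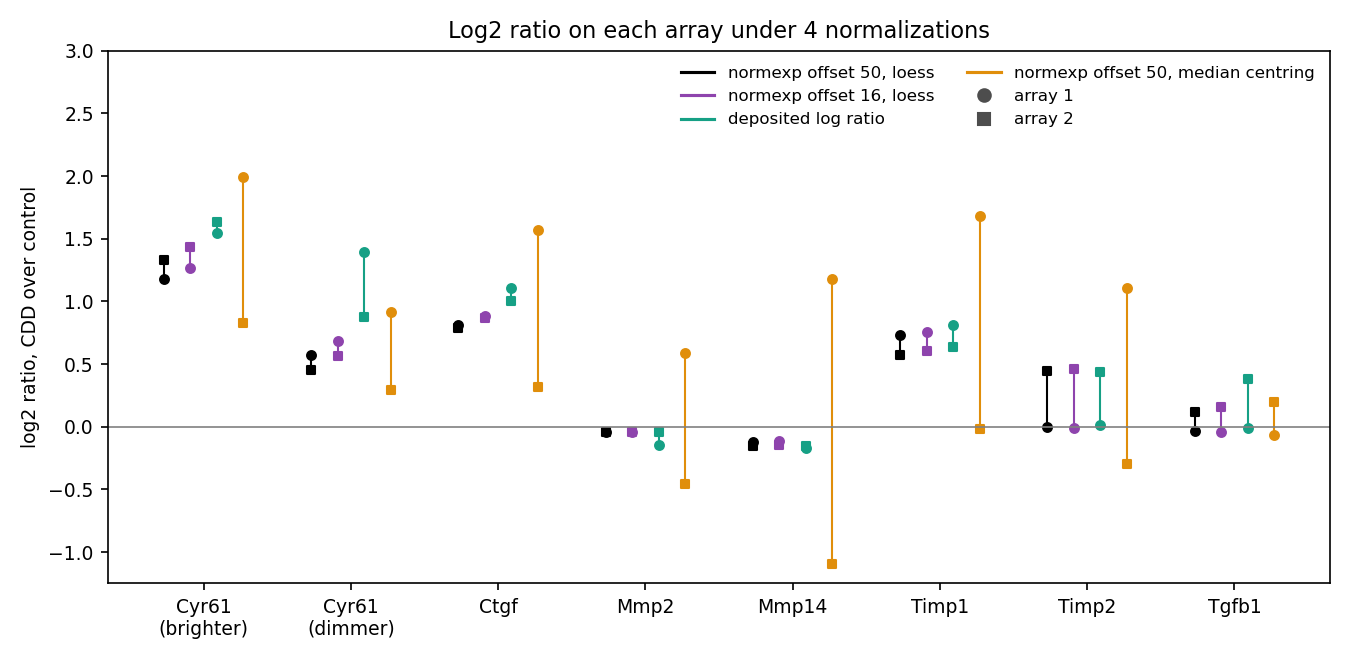
Log2 ratio of choline-deficient (CDD) over control (vertical axis) for the 8 probes kept, on array 1 (circles) and array 2 (squares), under 4 normalizations (colours). With loess or the deposited ratio the arrays lie close for most probes. Median centring separates most of them, and puts Timp1, Mmp2 and Mmp14 on opposite sides of 0. Timp2 and Tgfb1 lie on opposite sides of 0 with loess as well as with median centring.

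The calls of the 3 genes were lost under 2 of the other settings tried. With the authors' deposited log ratio their means were larger, 1.59 for Cyr61, 1.05 for Ctgf and 0.72 for Timp1, yet limma called 0 of the 9 genes and 0 genes in all (2122 at an unadjusted p under 0.05, 3 of them members), and with an intensity trend in the prior it called all 3 again. With each array only centred on its median, Timp1 stood at 1.68 on array 1 and -0.02 on array 2, so that its rise was not seen on array 2. Cyr61 (2.00 and 0.82) and Ctgf (1.57 and 0.32) remained above 0 on both arrays. Under this setting 0 were called (19 genes in all at an unadjusted p under 0.05, none of them a member).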

How the data were processed

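Liver RNA of 2 arrays was compared. Per the file headers, the authors read the scans with Feature Extraction of Agilent, version 9.5.3.1 (the submitters' processing notes give 9.5). The deposited files give spot and background intensity for each dye, a log10 ratio of Cy5 over Cy3 after the authors' background subtraction and lowess, and a p-value of that ratio within 1 array.

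Mean signals and median backgrounds were corrected by normexp (offset 50) in limma 3.58.1 under R 4.3.3, then each array was normalized by loess, in which control spots had weight 0. Spots called outliers were dropped and a probe's remaining spots averaged. A probe was kept where more than 50% of its spots were well above background on both arrays for the same diet, 22364 in all, and the brightest represented its gene. Ratios, turned to choline-deficient over control, were tested against 0 with lmFit and eBayes over 18195 genes, with a prior of 63.0 degrees of freedom against 1 per gene and Benjamini-Hochberg adjustment. The standard error thus depended little on a gene's own SD, at 0.101 for Ctgf (SD 0.01) and 0.105 for Timp2 (SD 0.32). Intervals are limma's, unadjusted. Intensities per diet were scaled between arrays (A-quantile).

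The members and lists were chosen with earlier results of these data known. Text names all members, called genes of each list (up to 5) and its 3 largest absolute ratios. Timp4, Ankrd1, Amotl2, Crim1 and the named cell markers were chosen after their values were seen. All 9 members matched RefSeq by accession. No coordinate was moved between builds.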

Additional observations from a re-analysis of the deposited data

How the results depend on the processing

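Cyr61, Ctgf and Timp1 passed limma's test with an offset of 16, without the filter on dim probes, with the mean over probes of a gene, with every probe tested and with an intensity trend in the prior. With the mean over probes, Cyr61 stood at 0.88, in place of 1.25 with the brighter probe alone. With the deposited log ratio, 0 genes were called higher and 0 lower, 0 members were called, and the adjusted p was 0.193 for Cyr61 (log2 ratio 1.59), 0.212 for Ctgf (1.05) and 0.265 for Timp1 (0.72). There the prior had 2.43 degrees of freedom in place of 63.0. With the deposited log ratio and an intensity trend, chosen after seeing the data, 3 members, 1146 genes higher and 1215 lower were called. With median centring, 0 genes were called higher and 0 lower, 0 members were called, Cyr61 stood at 1.41 ± 0.83 (SD, n = 2 arrays), Ctgf at 0.94 ± 0.89 and Timp1 at 0.83 ± 1.20, and Mmp2 (0.065) and Mmp14 (0.043) turned positive; the cause was not tested. On a single array, without replicate 1 or 2, values with no test were 1.18 to 1.33 for Cyr61, 0.79 to 0.81 for Ctgf, 0.57 to 0.73 for Timp1, -0.00 to 0.44 for Timp2 and -0.03 to 0.12 for Tgfb1. No paired analysis was possible beyond the ratio itself because that ratio already pairs both diets within an array and no further block is left. Signal near background limits Thbs1, Mmp9 and Tgfb1.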
